A study of Mus musculus with 6 samples.

Results

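Matrix genes of brain fibroblasts and vessels were followed through a ribosome pull-down from mouse brain: the collagen chains Col1a1, Col1a2, Col3a1, Col4a1, Col4a2 and Col6a1, the proteoglycans Dcn and Lum, the matrix protein Mgp and the secreted growth factor Igf2. These 10 genes were taken by symbol from the 24421 genes of the deposited count table, and all 10 were found there. In the RiboTag method, cells that express Cre begin to make Rpl22, a protein of the large ribosomal subunit, with an HA tag. Their ribosomes and the bound mRNA can then be immunoprecipitated (IP) with an HA antibody. The icKO mice carried NG2CreERTM, Ank3F/F (floxed Ank3, which encodes ankyrin-G, an adaptor that anchors membrane proteins) and Rpl22HA/+, and control mice carried NG2CreERTM and Rpl22HA/+ without the floxed Ank3. Both genotypes therefore carried the same Cre and tagged ribosome, and both received tamoxifen (100 mg/kg per day for 5 days) at 8 weeks of age and were taken 1 month later. There were 2 icKO IP, 2 control IP, 1 icKO input and 1 control input libraries, each from the pooled whole brains of 3 mice, and the inputs were taken from 10% of the homogenate before the pull-down. NG2, the product of Cspg4, is made by oligodendrocyte precursors and also by pericytes, so the driver is not limited to oligodendroglia.

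Collagens I and III are fibril-forming collagens of connective tissue, which in brain is found in the meninges and around larger vessels, where fibroblasts make them. Collagen IV, a trimer built from the Col4a1 and Col4a2 chains, is the network-forming collagen of the vascular basement membrane and is made by endothelial cells and pericytes. Collagen VI forms beaded filaments, decorin (Dcn) and lumican (Lum) are small leucine-rich proteoglycans that bind collagen fibrils, matrix Gla protein (Mgp) inhibits calcification of vessel walls, and Igf2 is an imprinted growth factor made in adult brain mainly by meninges and choroid plexus.

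Col4a1 and Col4a2 lie head to head on chromosome 8 (Col4a1 11198423 to 11312826, minus strand; Col4a2 11312805 to 11449287, plus strand, mm10, GENCODE M21), and their annotated starts overlap by 22 bases. Of the 10 genes, 6 had a promoter window in the RefSeq table (GRCm38.p6, 250 bases before to 50 after a start), and Col1a1, Dcn, Lum and Mgp had none. The stretches below belong to the genes whose genotype change differed between IP and input and that had a window. The first is the overlap of the facing starts, the others are bases before a start that lie outside annotated exons. Of the 4 Igf2 windows, the one shown is the one that holds both motifs. Capitals mark a GC box (GGGCGG or CCGCCC) or a CCAAT box (CCAAT or ATTGG).
Col4a2 and Col4a1 shared start, chr8:11312805-11312826, plus strand: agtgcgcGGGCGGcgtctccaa
Col6a1 upstream, chr10:76726169-76726294, minus strand: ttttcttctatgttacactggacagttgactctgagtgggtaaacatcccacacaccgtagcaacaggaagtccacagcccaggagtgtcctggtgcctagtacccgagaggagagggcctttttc
Igf2 upstream of the most downstream of its 4 listed starts, chr7:142657497-142657746, minus strand: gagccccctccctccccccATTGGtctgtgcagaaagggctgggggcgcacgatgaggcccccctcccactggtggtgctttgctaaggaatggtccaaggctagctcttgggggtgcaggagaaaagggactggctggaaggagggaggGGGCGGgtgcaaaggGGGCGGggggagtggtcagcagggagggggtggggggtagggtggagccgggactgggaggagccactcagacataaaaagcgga

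The facing Col4a starts share a GC box, the Igf2 stretch holds 2 GC boxes and 1 CCAAT box on the other strand, and the Col6a1 stretch holds none of these letters. Searched on both strands, a GC box was present in 35.7% and a CCAAT box in 37.4% of all 32851 promoter windows of 300 bases, and a TATA box (TATAAA or TTTATA) in 13.6%. Among the windows of the 10 genes, only that of Col3a1 held a TATA box.

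The libraries held between 18968806 and 23930812 counts. Levels are given as CPM, counts divided by the scaled library total, and 3 counts of such a library made 0.124 to 0.165 CPM. Ank3 was read at 1160 and 1163 CPM in the icKO IPs, against 1391 and 1363 CPM in the control IPs, and at 346 CPM in the icKO input, against 381 CPM in the control input. The count covers the whole gene, so it checks the genotype only weakly. All libraries are labelled oligodendrocytes, but the inputs are whole brain: the 12 neuron markers summed to 12352 and 12093 CPM in the icKO and control inputs. The 15 markers of mature oligodendrocytes summed to 16123 to 26630 CPM in the IPs, against 3572 and 3603 CPM in the inputs. Libraries of a pair differed by more than sampling noise, with chi-square over its degrees of freedom at 2.13 for the icKO IPs and 2.19 for the control IPs. The labels do not say whether the pools of a pair held different litters or days, so p-values measure the spread between these samples only.

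In the pull-down, collagen IV was far above whole-brain RNA, while the proteoglycans Dcn and Lum were far below it. CPM used TMM scaling factors over the 6 libraries. Each adjusted p below comes from the quasi-likelihood F test of edgeR and is adjusted by Benjamini-Hochberg over every gene tested. Of the 10 genes, 4 were higher and 4 lower in IP than in input over both genotypes, against a background of 70.0% of 15451 genes called in that comparison (34.8% higher and 35.1% lower). IP and input libraries did not overlap for 7 of the 10, Col1a1, Col1a2 and Mgp being the exceptions, against 74.1% of all genes tested. Tests within a genotype had 1 input library each, and that input was taken to vary like the IP pairs. Within icKO 3 were higher and 4 lower, against 69.4% of 15936 genes called (34.7% higher and 34.8% lower). Within control 6 were higher and 4 lower, against 68.3% called (34.4% higher and 33.9% lower). The median log2 difference of the 10 genes was 0.25, against 0.01 over all genes.

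Col4a1 was read at 119 and 118 CPM in the icKO IPs and 147 and 149 CPM in the control IPs, against 31.9 CPM in the icKO input and 31.4 CPM in the control input. Col4a2 was read at 93.7 and 95.7 CPM in the icKO IPs and 102 and 108 CPM in the control IPs, against 34.3 and 38.9 CPM in the icKO and control inputs. Every IP library was above both inputs for both chains. The IP to input difference was log2 2.06 ± 0.09 (SE, adjusted p = 5.14e-08, 4.16-fold) for Col4a1 and 1.45 ± 0.07 (adjusted p = 1.04e-07, 2.72-fold) for Col4a2 in edgeR's test.

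Col6a1, the alpha 1 chain of collagen VI, stood at 70.7 and 75.3 CPM in the icKO IPs and at 44.7 and 45.3 CPM in the control IPs, with inputs of 31.3 CPM (icKO) and 30.7 CPM (control). All IPs were above the inputs, and the IP to input difference was log2 0.87 ± 0.14 (adjusted p = 2.56e-04). Without the control input it was 1.22, and without the icKO input it was 0.55.

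Of the fibrillar chains, Col1a1 was lower in IP than in its own input in both genotypes. It was read at 23.6 and 20.9 CPM in the icKO IPs and 7.93 and 8.91 CPM in the control IPs, with 29.6 CPM in the icKO input and 12.5 CPM in the control input. The icKO IPs lay above the control input, so IP and input separate only within a genotype. The fitted IP to input difference was log2 -0.49 ± 0.11 (adjusted p = 0.0026).

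Its partner chain Col1a2 stayed between 22.9 and 25.7 CPM in the 4 IPs, with 26.7 CPM in the icKO input and 19.3 CPM in the control input. Its IP to input difference was 0.11 (adjusted p = 0.364), 0.31 (adjusted p = 0.0158) without the icKO input and -0.07 (adjusted p = 0.595) without the control input. Col3a1, the chain of collagen III, was read at 4.28 and 6.004 CPM in the icKO IPs and 5.88 and 5.47 CPM in the control IPs, against 3.45 and 2.73 CPM in the icKO and control inputs. All IPs were higher than both inputs (log2 0.81 ± 0.21, adjusted p = 0.0070), but with an offset for transcript length the adjusted p was 0.0603.

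Dcn was lower in every IP than in either input. Its levels were 1.76 and 0.771 CPM in the icKO IPs and 1.63 and 1.49 CPM in the control IPs, against 7.19 CPM in the icKO input and 6.68 CPM in the control input, a log2 difference of -2.29 ± 0.26 (adjusted p = 2.55e-05, 4.89-fold lower). Lum was counted 4 and 5 times in the icKO IPs and 1 and 5 times in the control IPs, against 22 counts in the icKO input and 30 in the control input. The IP counts are near the limit of 3 counts that an empty library allows, so the fitted log2 difference of -2.70 ± 0.52 (adjusted p = 0.0011) rests on 15 IP reads in all. It was -3.31 without the icKO input and -2.10 without the control input.

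For Mgp, the relation of IP to input differed between the genotypes. Levels were 10.9 and 9.36 CPM in the icKO IPs and 26.1 and 29.8 CPM in the control IPs, with 12.3 CPM in the icKO input and 13.95 CPM in the control input. The control IPs stood above both inputs and the icKO IPs below both. Within control the IP to input difference was log2 1.002 ± 0.13 (adjusted p = 8.19e-08), and within icKO it was -0.27 ± 0.15 (adjusted p = 0.110; -0.39 and 0.0243 with library totals). Over both genotypes it was 0.39 (adjusted p = 0.174), a value that turned to -0.28 (adjusted p = 0.0996) without the control input and was 0.999 (adjusted p = 3.02e-08) without the icKO input. With the offset for transcript length it was 0.86 (adjusted p = 0.0056).

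Igf2 was lower in every IP than in either input, at 24.3 and 21.4 CPM in the icKO IPs and 35.8 and 35.4 CPM in the control IPs, against 48.6 CPM in the icKO input and 44.6 CPM in the control input. Its IP to input difference was log2 -0.71 ± 0.15 (adjusted p = 0.0015), -1.09 without the control input and -0.33 without the icKO input. The gene overlaps a protein-coding readthrough annotation, Gm49394, on its own strand, and the antisense Igf2os, which had 2 to 5 counts per library. The neighbouring imprinted RNA H19 had 3 to 7 counts per library.

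**Figure D1:**
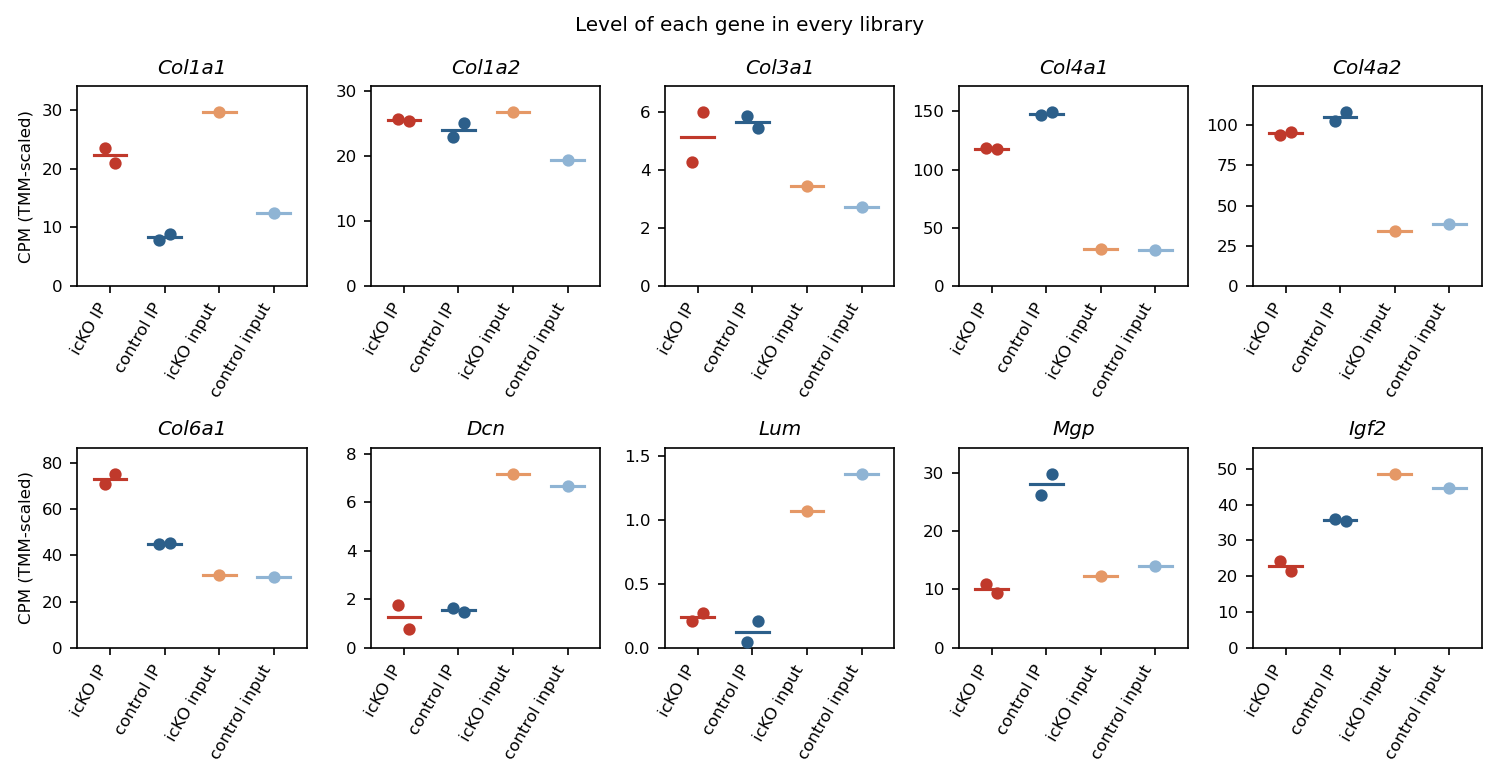
Level of each of the 10 genes (CPM, TMM-scaled over 6 libraries, linear axes from 0) in icKO IP, control IP, icKO input and control input. Points are single libraries and bars are group means. Collagen IV is highest in the IPs, Dcn and Lum in the inputs, and Mgp stands apart in the control IPs at 26.1 and 29.8 CPM.

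Per kilobase of annotated exon, the order of the genes differed between the genotypes. In the icKO IPs the mean levels were 16.7 CPM per kb for Col6a1, 15.8 for Col4a1, 14.3 for Col4a2, 8.54 for Mgp, 3.997 for Igf2, 3.39 for Col1a1 and 2.05 for Col1a2. In the control IPs Mgp led at 23.6 CPM per kb, followed by Col4a1 at 19.8, Col4a2 at 15.9, Col6a1 at 10.3, Igf2 at 6.23, Col1a2 at 1.93 and Col1a1 at 1.28. Col3a1, Dcn and Lum closed both orders, at 0.524, 0.217 and 0.0999 CPM per kb in icKO IPs and 0.578, 0.267 and 0.0521 in control IPs. In both orders the 2 libraries of a gene did not overlap with those of its neighbour, and these differences were not tested. The length of a gene was that of all its annotated exons joined, from 1.19 kb for Mgp to 12.4 kb for Col1a2. The order between genes therefore depends on the annotation.

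In the icKO and control inputs Mgp was highest, at 10.4 and 11.8 CPM per kb, followed by Igf2 at 8.50 and 7.79 and Col6a1 at 7.14 and 7.01. Counting intervals of neighbours overlapped for Igf2 and Col6a1 in the control input, for Col4a2 and Col1a1 and for Col1a1 and Col4a1 in the icKO input, for Col1a1 and Col1a2 in the control input and for Lum and Col3a1 in the icKO input. These are exact Poisson 95% intervals of 1 library each.

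Between genotypes, the study asks what loss of ankyrin-G does to the RNA carried by tagged ribosomes. In the icKO IPs Col1a1 and Col6a1 rose while Mgp, Igf2 and both collagen IV chains fell. Of the 9 genes with enough counts for the test in the 4 IP libraries, 2 were higher and 4 lower, against a background of 47.2% of 15069 genes called (22.1% higher and 25.2% lower). Lum did not pass the filter on low counts. The IP libraries of the genotypes did not overlap for 7 of the 9, against 72.2% of all genes tested. The median log2 change of the 9 was -0.14, against 0.0033 over all genes. Among all genes called, 46.7% were higher with TMM factors and 32.6% with library totals, while the counts for these 9 genes stayed at 2 and 4.

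Col1a1 averaged 22.2 ± 1.91 CPM in icKO IPs and 8.42 ± 0.693 CPM in control IPs (SD, n = 2 each), which is 2.65-fold (log2 1.41 ± 0.12, SE; edgeR adjusted p = 9.44e-12). Both icKO libraries were above both control libraries. Col1a2 did not move with it: its means were 25.5 ± 0.269 and 23.99 ± 1.55 CPM in icKO and control IPs, and its log2 change of 0.10 ± 0.09 had adjusted p = 0.384. Its sign turned to -0.06 with an offset for transcript length. Col3a1 was at 5.14 ± 1.22 CPM in icKO IPs and 5.68 ± 0.287 CPM in control IPs (log2 -0.13 ± 0.19, adjusted p = 0.595), and its libraries overlapped. Without icKO IP replicate 1 its log2 change was 0.09.

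Col6a1 averaged 73.0 ± 3.22 CPM in icKO IPs and 45.0 ± 0.381 CPM in control IPs, or 1.63-fold (log2 0.71 ± 0.06, edgeR adjusted p = 9.03e-12). Col4a1 averaged 118 ± 0.775 CPM in icKO IPs and 148 ± 1.84 CPM in control IPs (log2 -0.31 ± 0.04, adjusted p = 8.04e-08). Col4a2 fell less, with 94.7 ± 1.38 CPM in icKO IPs and 105 ± 4.06 CPM in control IPs (log2 -0.14 ± 0.05, adjusted p = 0.0137). The Col4a2 call did not hold when control IP replicate 2 was left out (adjusted p = 0.179), nor when icKO IP replicate 1 was (adjusted p = 0.0603). The libraries of the genotypes did not overlap for any of these chains.

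Mgp showed the largest fall of the 9, with 10.1 ± 1.09 CPM in icKO IPs and 27.95 ± 2.63 CPM in control IPs (SD, n = 2 each). That is 2.74-fold lower (log2 -1.45 ± 0.11, SE; edgeR adjusted p = 8.04e-13). Igf2 averaged 22.9 ± 2.05 CPM in icKO IPs and 35.6 ± 0.311 CPM in control IPs (log2 -0.63 ± 0.08, adjusted p = 1.76e-07, 1.54-fold lower). Dcn was at 1.27 ± 0.702 CPM in icKO IPs and 1.56 ± 0.0937 CPM in control IPs, with a log2 change of -0.28 ± 0.39 (adjusted p = 0.589) that was 0.19 without icKO IP replicate 2. Short transcripts as a class were lower in icKO IPs: the median log2 change was -0.15 for genes with under 1.5 kb of exon and 0.14 for those over 8 kb. With an offset for that trend Mgp, which has 1.19 kb of exon, was at -1.21 and Igf2 at -0.65, and both kept their call.

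Markers of mural cells fell as well, and so did those of oligodendroglia, where 25.2% of all genes tested were lower. Of mature oligodendrocyte markers 15 of 15 fell (median log2 change -0.76), and of precursor markers 13 of 14 (median -0.26). The precursor marker not called was the defining one, Pdgfra, at -0.03 (adjusted p = 0.226). Of 12 pericyte markers 11 fell in the icKO IPs (median log2 change -1.01). The other, Cspg4, was at 0.08 (adjusted p = 0.0041), a value that turned to -0.06 under the length offset and -0.0015 under library totals and was not called without icKO IP replicate 2. Among the falls, Pdgfrb, the growth factor receptor of pericytes, was at -0.79. The summed pericyte list without Cspg4 was 915 and 927 CPM in icKO IPs and 1763 and 1781 CPM in control IPs, against 111 and 115 CPM in the icKO and control inputs. All 10 smooth muscle markers fell too (median -0.96, Acta2 -0.90). The calls of Cnn1 and Actg2 did not hold in every fit with a library left out. The smooth muscle list summed to 138 and 129 CPM in icKO IPs and 237 and 250 CPM in control IPs. No marker of either list was at 0 in all libraries. Their part in the changes of Mgp and collagen IV was not tested, and in these bulk samples fewer cells of a type and less RNA per cell cannot be told apart.

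The fibroblast and meningeal list did not follow Col1a1. It summed to 232 and 233 CPM in icKO IPs and 236 and 245 CPM in control IPs, against 178 and 166 CPM in the icKO and control inputs. Such a sum is weighted to the more abundant genes: it was higher in IP, while the median marker was lower (log2 -0.47). Of 18 markers tested 2 rose, 4 fell and 12 were not called (median -0.07), against 22.1% of all genes higher and 25.2% lower. Slc6a13, a transporter of meningeal fibroblasts, was at 2.94 and 2.75 CPM in icKO IPs and 2.87 and 3.36 CPM in control IPs (log2 -0.12, adjusted p = 0.717). Foxc1, a transcription factor of meningeal and mural cells, fell by 0.68 on the log2 scale. The 2 rises became 1 without control IP replicate 1 or icKO IP replicate 1, and 0 with library totals.

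**Figure D2:**
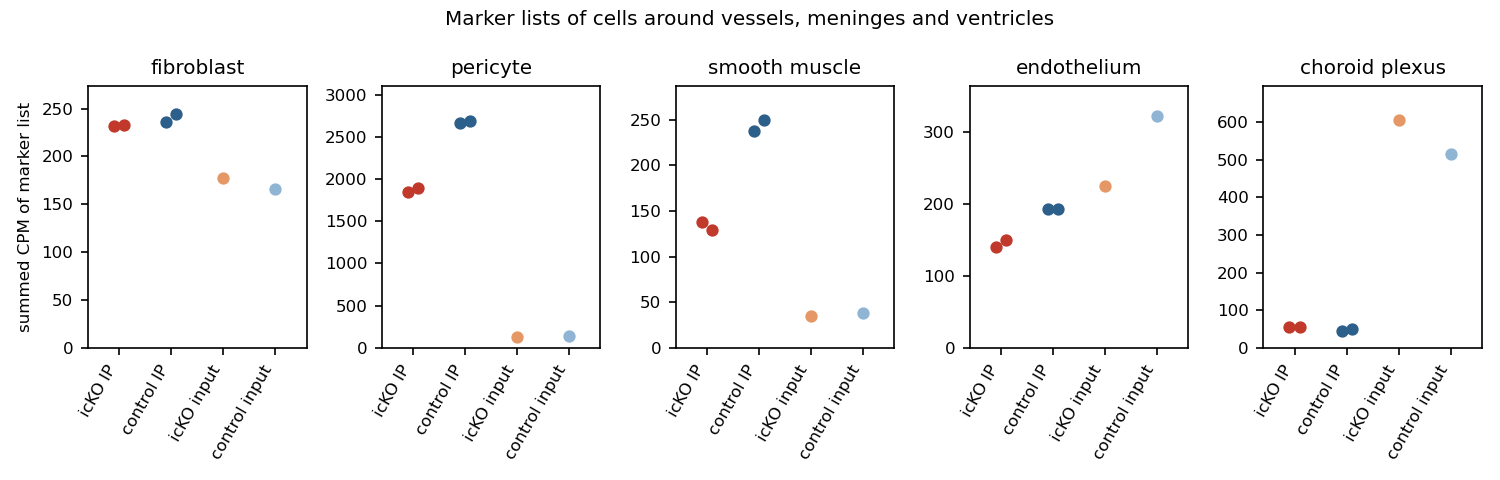
Summed CPM of 5 marker lists (20 fibroblast, 12 pericyte including Cspg4, 10 smooth muscle, 15 endothelial and 12 choroid plexus genes) in every library, linear axes from 0. The pericyte and smooth muscle sums are lower in icKO IPs than in control IPs and lowest in the inputs, while fibroblast sums of 232 to 245 CPM in the IPs differ little.

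In the inputs, with 1 library a genotype and no replicate check, Col1a1 was higher in icKO as well. It had 609 counts in the icKO input and 276 in the control input, a ratio of 2.34 (exact binomial 95% interval 2.03 to 2.71, counting error only). It was the only 1 of the 10 genes past 1.5-fold, against 7.10% of the 14906 genes with at least 20 counts in the inputs together (3.31% higher and 3.79% lower). Col1a2 had 550 counts in icKO and 425 in control (ratio 1.37, interval 1.21 to 1.56). For Col3a1 the ratio was 1.26 (0.878 to 1.80), for Col4a1 1.01 (0.906 to 1.13), for Col4a2 0.876 (0.792 to 0.969) and for Col6a1 1.01 (0.906 to 1.13). It was 1.07 (0.844 to 1.35) for Dcn, 0.778 (0.428 to 1.39) for Lum, 0.874 (0.737 to 1.04) for Mgp and 1.08 (0.990 to 1.18) for Igf2. For Col1a1 the ratio of 2.34 in whole homogenate stood beside 2.65-fold in the pull-down. Endothelial markers summed to 225 CPM in the icKO input and 322 CPM in the control input, and choroid plexus markers to 604 and 515 CPM.

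The genotype change in IP was then set against that in input, taking the spread of the IP pairs for the inputs, which have 1 library each. Of the 10 genes, 1 differed upward and 3 downward, against a background of 23.6% of 15936 genes called (9.67% upward and 13.9% downward). Of all genes called, 41.0% differed upward with TMM factors and 27.99% with library totals. The difference was log2 0.68 ± 0.12 for Col6a1 (adjusted p = 7.67e-05), -1.28 ± 0.20 for Mgp (adjusted p = 1.77e-05), -0.76 ± 0.13 for Igf2 (adjusted p = 5.10e-05) and -0.35 ± 0.10 for Col4a1 (adjusted p = 0.0103). The Col4a1 call was lost in DESeq2 (adjusted p = 0.0670). For Col1a1 the difference was 0.16 ± 0.19 (adjusted p = 0.593), so a larger change in IP than in input was not shown. Col1a2 was at -0.38 ± 0.16 (adjusted p = 0.0825), and passed with library totals (-0.45, adjusted p = 0.0341) and with the length offset (-0.51, adjusted p = 0.0173).

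**Figure D3:**
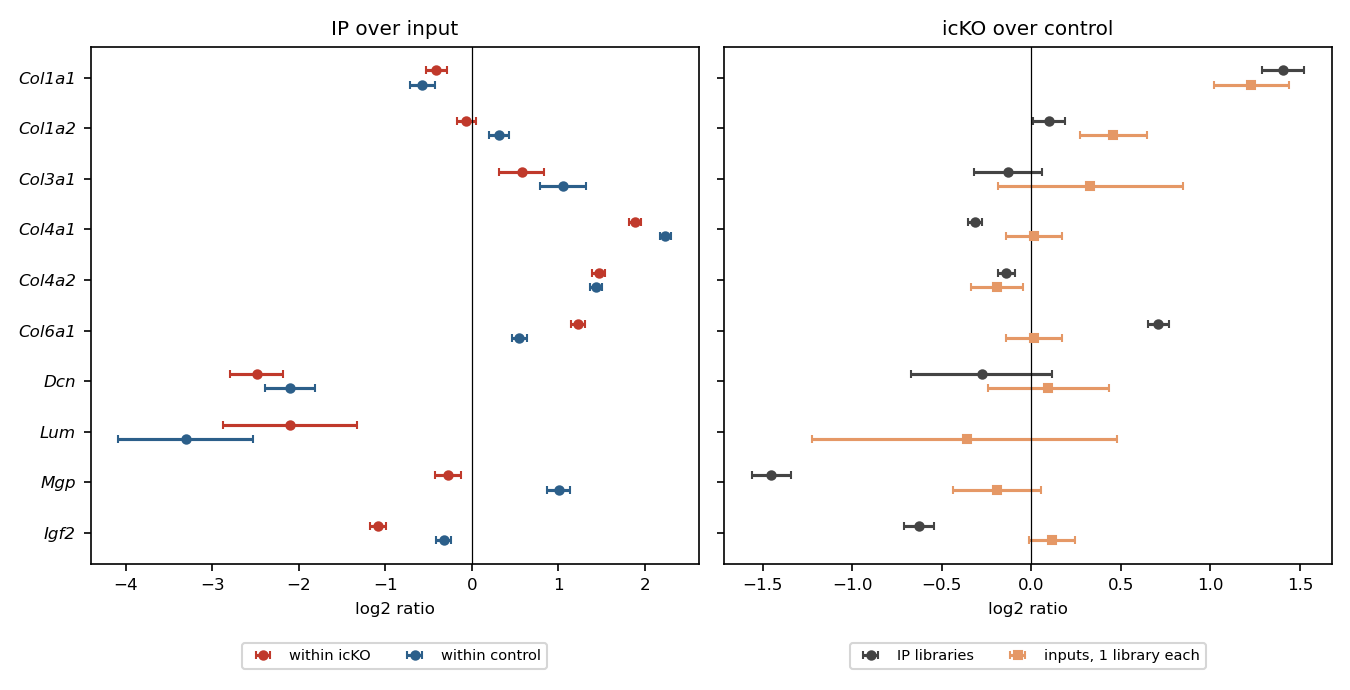
Left, log2 ratio of IP over input for each gene within icKO (red) and within control (blue), bars showing ± 1 SE. Right, log2 ratio of icKO over control in the IPs (grey, ± 1 SE; Lum not tested) and in the inputs (orange squares, exact 95% counting interval of 1 library each). Col1a1 is high in both IP and input (log2 1.41 and 1.22), whereas Mgp and Igf2 are lower in icKO in the IPs and near 0 in the inputs.

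The partner chains were compared per kilobase of exon within each library. The ratio of Col4a1 to Col4a2 was 1.12 and 1.09 in icKO IPs and 1.27 and 1.23 in control IPs, against 0.825 in the icKO input and 0.716 in the control input. All IPs were above 1 and both inputs below it. The ratio of Col1a1 to Col1a2 was 1.74 and 1.56 in icKO IPs and 0.656 and 0.673 in control IPs, with 2.10 in the icKO input and 1.23 in the control input. It was higher in icKO than in control in both kinds of library. Absolute ratios depend on the exon lengths of the annotation, which are the same for every library.

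**Figure D4:**
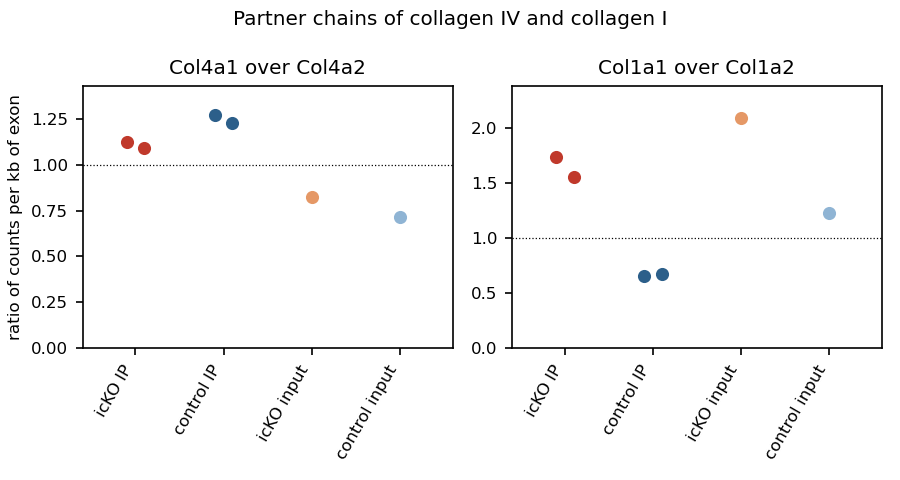
Ratio of counts per kb of exon for the partner chains of collagen IV (Col4a1 over Col4a2) and collagen I (Col1a1 over Col1a2) in every library, with a dotted line at 1. The collagen IV ratio separates IPs (1.09 to 1.27) from inputs (0.716 and 0.825), and the collagen I ratio separates icKO from control within IPs and within inputs.

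Lists of other matrix genes differed in how their members compared with input, and are read against the 34.8% of all genes higher and 35.1% lower in IP. Long transcripts as a class were higher in IP. The median log2 difference was -0.27 for genes with under 1.5 kb of exon and 0.37 for those over 8 kb. All 8 other fibrillar collagen genes were higher in IP (median log2 1.89, against 0.01 over all genes), led by Col11a2 (3.19) and Col11a1 (2.19), chains of collagen XI. Of 13 other chains of collagens IV, VI, VIII, XV and XVIII 5 were higher and 1 lower (median 0.22), with Col4a3 at 3.08, Col18a1, the perivascular basement membrane collagen, at 2.48 and Col8a2 at -2.72. Of 16 further collagens tested 10 were higher and 2 lower (median 0.98), among them Col9a3 at 3.10 and Col25a1 at -1.21. Of 17 laminins and other basement membrane genes 12 were higher and 2 lower (median 1.04), with Lamc3 at 3.27, perlecan (Hspg2) at 2.75 and Sparc at -1.26.

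Of the enzymes that fold, process and cross-link collagen, 17 of 25 were higher and 2 lower (median 0.97), with the lysyl hydroxylase Plod2 at 2.21 and the lysyl oxidase relative Loxl3 at 2.31. Of 9 collagen receptors tested 7 were higher and 0 lower at adjusted p (median 1.39), led by the integrin chain Itga1 (3.17) and the discoidin receptor Ddr1 (2.22), while without the icKO input 2 were lower. Of 6 other leucine-rich proteoglycans 3 were higher and 2 lower (median 0.15), with Aspn at 3.68, biglycan (Bgn) at 1.78 and Fmod at -2.45. Of 11 genes of the IGF system 5 were higher and 5 lower (median -0.35), with the binding protein genes Igfbp7 at 1.91 and Igfbp3 at 1.75 and, on the other side, Igfbp6 at -2.85 and Igfbp2 at -2.48. Of 12 matrix proteases and inhibitors 6 were higher and 4 lower (median 0.75), with the gelatinase Mmp2 at 4.01. Single left-out libraries changed the lower count to 1 for further collagens (control IP replicate 2, icKO input or icKO IP replicate 2) and for proteoglycans (control IP replicate 1 or icKO IP replicate 1). For collagen-processing enzymes it was 4 without the control input and 1 without the icKO input, icKO IP replicate 1 or icKO IP replicate 2.

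Between genotypes, the counts of the same lists stand beside 22.1% of all genes higher and 25.2% lower in icKO IPs, and several lists were near these shares. Other fibrillar collagens were higher in icKO IPs in 4 of 8 cases and lower in 0 (median log2 0.31, against 0.0033 over all genes), with Col24a1 at 1.06 and Col11a1 at 0.72. Of the 12 other basement membrane and beaded-filament chains tested 3 rose and 2 fell (median 0.16), with Col15a1 at 0.92, Col6a4 at 0.83 and Col18a1 at -0.41. Of 16 further collagens 7 rose and 1 fell (median 0.30), with Col17a1 at 1.62. Laminins and their relatives rose in 4 and fell in 8 of 17 cases (median -0.03), with Lama3 at 1.099 and Lama1 at 0.63, and with Sparc at -0.79 and nidogen (Nid1) at -0.72.

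Of the collagen-processing enzymes 4 rose and 6 fell of 25 (median -0.08): the prolyl hydroxylase P4ha2 was at 0.78 and P3h3 at 0.55, while the collagen chaperone Serpinh1 was at -0.67 and Pcolce, an enhancer of procollagen processing, at -0.79. No leucine-rich proteoglycan of 6 tested rose and 3 fell (median -0.59), among them Bgn at -0.88. Of 9 collagen receptors 2 rose and 5 fell (median -0.35), with Itga10 at 1.07, Itga1 at -0.86 and Mrc2 at -0.46. Of 11 IGF genes 4 rose and 2 fell (median 0.05), the falls being Igfbp7 at -1.11 and Igfbp5 at -0.48. Of 11 proteases and inhibitors 3 rose and 5 fell (median 0.0043), with Mmp24 at 0.29 and the protease inhibitor genes Timp3 and Timp2 both at -0.60. Left-out libraries lowered the count of falls to 1 for basement membrane chains and to 0 for further collagens (control IP replicate 2 or either icKO IP). They lowered the rises to 1 for receptors (control IP replicate 2 or icKO IP replicate 1) and to 2 for IGF genes (control IP replicate 2 or icKO IP replicate 2), and the falls of proteases to 3 (control IP replicate 1) or 2 (icKO IP replicate 1). With library totals in place of TMM factors, which lowers all log2 changes together, 3 fibrillar collagens, 2 basement membrane chains, 6 further collagens, 1 receptor, 1 protease and 3 IGF genes rose. Falls then numbered 4 for IGF genes, 6 for proteases and 8 for processing enzymes. With RLE size factors 1 basement membrane chain fell.

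Cell type markers give the setting of these values. Over all genes tested, 34.8% were higher and 35.1% lower in IP. Against input, all 12 pericyte markers (median log2 3.44), 9 of 10 smooth muscle markers (2.28), all 14 precursor (3.98) and all 15 mature oligodendrocyte markers (2.54) were higher in IP. Fibroblast markers were mixed, with 6 higher and 8 lower of 18 (median -0.47): Foxd1 was at 2.07 and Slc6a20a at 1.71, while Aldh1a2, a retinoic acid enzyme of meningeal fibroblasts, was at -2.02 and Lsp1 at -1.82. Endothelial markers were lower in 12 of 15 cases and higher in 1 (median -0.86, Cldn5 -2.43), with 2 higher without icKO IP replicate 2. All 12 choroid plexus (median -1.81, Ttr -3.92), 12 neuron (-2.11), 10 astrocyte (-1.71) and 10 microglia markers (-2.64) were lower. Of 5 erythrocyte genes 4 had no count in any library and the fifth, Alas2, was lower at -2.11.

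Between genotypes in the IPs, 13 of 14 precursor markers (median -0.26) and 15 of 15 mature oligodendrocyte markers (-0.76) fell, and none rose. The counts of this comparison stand beside 22.1% of all genes tested higher and 25.2% lower in icKO IPs. Endothelial markers rose in 2 and fell in 4 of 15 cases (median -0.38), choroid plexus markers rose in 2 and fell in 0 of 10 (0.42), neuron markers rose in 6 and fell in 1 of 12 (0.08) and astrocyte markers rose in 7 and fell in 1 of 10 (0.29). Microglia markers rose in 1 and fell in 2 of 10 cases (0.12), and Alas2 fell by 0.95 on the log2 scale. The endothelial rises were 0 without control IP replicate 1 or icKO IP replicate 2, and the choroid plexus rises were 0 without either of these and 1 without icKO IP replicate 1. The neuron fall was lost without icKO IP replicate 2. The microglia rises were 2 if icKO IP replicate 1 was left out and 0 if control IP replicate 2 was, and the falls were 0 without control IP replicate 1 and 1 without any other IP library. With library totals the rises were 0 for choroid plexus and microglia, 1 for endothelial, 4 for astrocyte and 5 for neuron markers, and the falls 6 for endothelial, 2 for astrocyte and 3 for neuron markers.

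The genes most like 3 of the 10 over the 6 libraries were taken by the smallest root mean square difference of centred log2 CPM among 15441 other genes, as a description. For Col4a1 they were Ednrb (0.0198), Itgb1 (0.0249) and Dock1 (0.0391), for Igf2 Spcs1 (0.0590), Eid1 (0.0646) and Srp19 (0.0664), and for Col1a1 Cd72 (0.220), Pomc (0.227) and Slc2a5 (0.228). No gene came as close to Col1a1 as the nearest ones did to Col4a1 and Igf2, and the 3 named for Col1a1 were read at no more than 2.09 CPM in any library. Among the 10 genes themselves, Col4a1 and Col4a2 were the closest pair (0.304), followed by Col1a2 and Col3a1 (0.368). Col3a1 was nearly as close to Col4a2 (0.372) and Col6a1 (0.382), while Col1a1 and Col1a2 differed by 0.645.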

How the data were processed

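The deposited values are raw counts of reads for each gene, with no normalization by the authors. Per the submitters' processing notes, Trimmomatic 0.39, STAR 2.7.10b and build mm10 were used. Which program and annotation gave the counts, whether strand was used and how molecular identifiers were treated the sources used here do not give. Overlapping genes are therefore uncertain. The library kit was a stranded total RNA kit for low input, per the labels' protocols. Of 24421 genes, 10 without a value in the inputs were left out. TMM scaling preceded the test in edgeR 4.0.16 (glmQLFit, two-sided, filterByExpr, adjusted p under 0.05) in R 4.3.3. IP was tested against input over 6 libraries with genotype as a term, icKO IP against control IP over the 4 IPs (common coefficient of variation 3.01%, 2 residual degrees of freedom), and the difference of genotype changes over 4 groups. The fit over 4 groups also gave IP against input within each genotype, with each lone input taken to vary like the IP pairs. Inputs had no test. Each SE of a log2 change was derived from its test, as the absolute log2 change divided by the square root of the F statistic. Exon lengths and coordinates came from GENCODE M21. Fits were also run on simulated counts with a spread near the 3.01% of the IP pairs. The fit of IP against input had a common coefficient of variation of 8.61%, so these runs do not show its error rate. Alternatives were other scalings and filters, DESeq2 1.42.0, left-out libraries, a replicate block and, chosen after seeing the data, a length offset. The genes and lists were chosen with earlier results of these data known. Of each list, up to 2 genes with the highest and 2 with the lowest change past the threshold were eligible to be named. In the text are those that kept the call without each library in turn (42 did and 22 did not between genotypes, 55 did and 4 did not against input), beside 1 or 2 defining markers a list.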

Additional observations from a re-analysis of the deposited data

Results flagged for a closer look

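The genotype change differed between pull-down and whole homogenate, by a test of the difference itself, for 4 of the 10 genes, against 23.6% of the 15936 genes tested. The log2 change in IP minus that in input was -1.2762 for Mgp, -0.7577 for Igf2, 0.6767 for Col6a1 and -0.3457 for Col4a1. Each input was 1 library, so its spread was taken from the IP pairs, and the Col4a1 call was lost in DESeq2 (adjusted p = 0.0670). Groups held 1 or 2 libraries, so single libraries standing apart within a group could not be tested for.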

How the results depend on the processing

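The same-numbered IP libraries did not deviate together (correlation of deviations -0.0031 over 15069 genes), so no pairing by replicate number was seen. With 2 IP libraries per genotype, this measure cannot exclude a pairing. With the replicate block, 7277 genes were called between genotypes in place of 7119, with the same member counts of 2 higher and 4 lower. Leaving out single libraries gave 4 to 6 members higher and 4 lower against input, with 10106 to 11076 genes called, and 2 higher and 3 to 4 lower between genotypes, with 5905 to 6242 genes called. For the difference of genotype changes it gave 1 upward and 3 downward, with 3514 to 3889 genes called. Among genes of at least 5 CPM, 2 members in place of 4 were lower against input, because Dcn and Lum were not tested there. DESeq2 called 1680 genes in place of 3762 for the difference of genotype changes, and the cause was not tested. Signs that turned belonged to uncalled values: against input, Col1a2 was at -0.29 with the length offset and between -0.0666 and 0.309 without single libraries, and Mgp between -0.28 and 0.999. Between genotypes, Col1a2 was at -0.0596 with the length offset, and without single libraries Col3a1 lay between -0.396 and 0.0917 and Dcn between -0.999 and 0.19. For the difference of changes, Col4a2 (0.03) was at -0.0163 with the length offset, -0.0354 with library totals and between -0.0055 and 0.0729 without single libraries, and Dcn between -1.11 and 0.0825. Among called genes, Cspg4 was at -0.0647 with the length offset and -0.0015 with library totals, and Loxl1 against input between -1.80 and 0.0842 without single libraries. Between genotypes in the IPs, 102 values of the 10 genes under alternatives kept direction and side of the threshold, 2 lost the call and 3 turned sign. Against input 110 kept both, 1 lost the call, 3 gained it and 3 turned sign. For Lum, at 1 to 5 counts in the IPs, a genotype change was not detectable at this depth.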
